A study of Homo sapiens with 4 samples.

Results

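The 9 genes described here are integrated stress response genes: ATF4, DDIT3, DDIT4, ASNS, TRIB3, CHAC1, SESN2, ATF3 and PPP1R15A. They were named as members of the pathway, with earlier results of these data known, and all 9 had reads, among 17157 genes with a read over an annotated splice junction. All 9 passed the filter on low counts, which left 10827 genes for testing. The data are reads across splice junctions in RNA bound to chromatin, the fraction that holds transcripts still being made or just released. They come from 4 libraries of the human line K562, 2 labelled wild type and 2 labelled SF3B1 K700E, called mutant below. SF3B1 is the part of the U2 snRNP that binds around the branch point when a 3′ splice site is chosen, and K700E is a recurrent substitution of it in myeloid neoplasms.

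The treatment text is the same for all 4 libraries: doxycycline at 1 µg/ml switched on the modified allele, and cells were taken at day 4. Whether an inducible allele, or the drug, was also present in wild type is not stated. Chromatin was prepared with 25 µM α-amanitin, an RNA polymerase II inhibitor, in the buffers. Polyadenylated and ribosomal RNA were removed before the low-input library step. Nothing in the labels says that replicates are separate cultures or clones, so the p-values measure the spread between these libraries, which may be technical.

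The wild-type libraries held 3576186 and 3680971 uniquely mapped junction reads, and the SF3B1 K700E libraries 4297403 and 5313943. The labels call K562 epithelial, whereas it is commonly described as an erythroleukemia line. All 14 erythroid markers had reads, with a summed level of 1735 and 2176 CPM in wild type and 1475 and 2263 CPM in the mutant libraries. CPM is the read count scaled by library total and composition. Of 9 epithelial markers 6 had reads, while CDH1, ESRP1 and KRT5 were at 0, and the sums were 483 and 371 against 348 and 443 CPM. The megakaryocyte list, 4 of 6 with reads, varied most within groups, at 415 and 152 against 146 and 618 CPM. Of all genes tested, 36 were higher and 65 lower in mutant cells at an adjusted p of 0.05 (edgeR).

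The integrated stress response starts with kinases that phosphorylate the translation factor eIF2, which lowers protein synthesis while letting the ATF4 message be translated. ATF4 is a bZIP transcription factor that pairs with C/EBP proteins and activates genes for amino acid supply, redox balance and, under lasting stress, cell death. PPP1R15A closes the loop by bringing protein phosphatase 1 to eIF2. Much of ATF4's own control is at translation, which RNA counts do not measure.

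Short promoter elements are shown first because ATF4 and its relatives are known to bind elements of these kinds. Binding to these genes was not measured here. Windows from 250 bases before to 50 bases after each RefSeq start (GRCh38.p14) were searched on both strands. All 9 genes had such a window, 15 among 35116. The core of the C/EBP-ATF response element, TGATGNAA, was found in 3 of the 15 windows, 1 each in 3 genes, and in 3.62% of all windows. Counted by gene, 4.46% of 27305 genes had it. The full cyclic AMP response element, TGACGTCA, was found in 1 of the 15 windows, that of PPP1R15A, and in 1.85% of all windows. A match describes letters only, and no match says only that these letters are not in the window. The matches follow on the gene's strand with the element in capitals, at chr7:97872458-97872487 (minus strand) for ASNS, chr15:40953251-40953280 (plus) for CHAC1, chr1:212565205-212565234 (plus) for ATF3 and chr19:48872352-48872381 (plus) for PPP1R15A.
ASNS: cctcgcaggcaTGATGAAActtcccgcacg
CHAC1: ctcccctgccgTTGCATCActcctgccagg
ATF3: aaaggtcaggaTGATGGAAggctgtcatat
PPP1R15A: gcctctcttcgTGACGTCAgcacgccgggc
The elements begin at position -68 of ASNS, -191 of ATF3 and -58 of PPP1R15A, counted from the start. In CHAC1 the element reads on the other strand, at -209. The ATF3 match lies before its most upstream annotated start. The annotated intron that leaves that start (chr1:212565484-212615017) had 0 of the 61 reads ending at its acceptor, which allows a share of up to 4.92%.

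None of the 9 genes passed the threshold in edgeR's quasi-likelihood test with Benjamini-Hochberg adjustment over all genes tested, against 0.333% of all genes called higher and 0.6% called lower. At an unadjusted p of 0.05, 0 of the 9 were higher and 1, DDIT4, was lower, against 3.67% and 6.44% of all genes. DESeq2 called 1 of the 9, DDIT4, and voom called 0. Both SF3B1 K700E libraries lay below both wild-type libraries in 2 of the 9, DDIT4 and ATF3, and above both in 0. Over all genes tested, 20.1% lay below and 19.4% above in this way. The ASNS total in these counts leaves out introns shared with another gene, which held 4674 of its 4730 reads. With such introns counted, a setting added after the data were seen, both mutant libraries lay above both wild-type ones in ASNS. The median log2 change was -0.06 over the 9 genes and 0.00 over all genes tested, with 4 of the 9 positive and 5 negative.

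**Figure D1:**
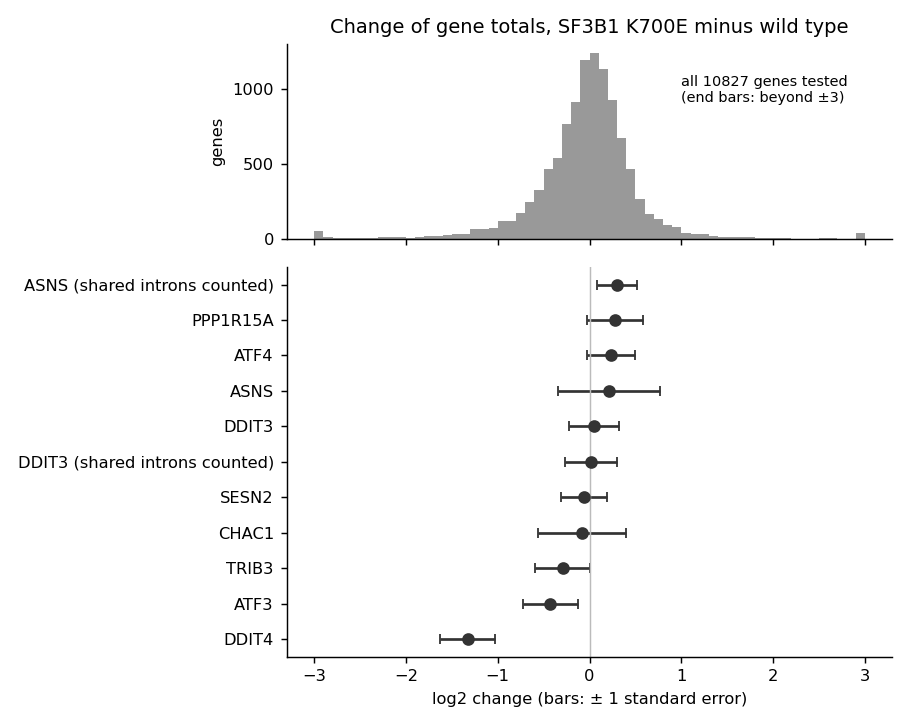
Log2 change of gene totals, SF3B1 K700E minus wild type. The upper panel counts all 10827 genes tested by log2 change, and the lower panel gives the 9 genes with bars of 1 standard error, ASNS and DDIT3 also with introns of several genes counted. DDIT4 stands at -1.33 and the other 8 lie between -0.43 and 0.30.

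DDIT4 had the lowest log2 change of the 9. It encodes REDD1, an inhibitor of the growth kinase mTORC1 that is made under hypoxia, glucocorticoids and other stresses (ENSG00000168209.4, GRCh38 chromosome 10, 72273920 to 72276036, plus strand). Its annotated junctions held 160 and 201 reads in wild type and 70 and 124 in the mutant libraries, or 48.9 and 60.4 against 17.7 and 25.8 CPM. The groups did not overlap. The means were 54.7 ± 8.15 and 21.7 ± 5.75 CPM (SD, n = 2), 2.52-fold higher in wild type.

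DDIT4's log2 change of -1.33 (standard error 0.30) did not pass the threshold (edgeR adjusted p = 0.0751). Of all genes tested, 174 had a p at or below that of DDIT4, and 2.62% had a log2 change as low or lower. DESeq2 called it lower (adjusted p = 0.0205), as it did 1.42% of all genes. Leaving out wild-type replicate 1 also ended on the called side (edgeR adjusted p = 0.00980), where 1.55% of all genes were called lower. That fit has 1 wild-type library, which is assumed to vary like the 2 mutant ones. Over the settings tried the adjusted p ran from 0.00980 to 0.353, while the log2 change ran from -1.62 to -1.07.

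Both introns of DDIT4 were lower in both SF3B1 K700E libraries. The first lies in the 5′ UTR (72274061 to 72274156) and had 16.5 and 23.1 CPM in wild type against 8.07 and 7.49 CPM. The second interrupts the coding sequence (72274422 to 72274694) and had 32.4 and 37.3 CPM in wild type against 9.59 and 18.3 CPM. Neither intron's groups overlapped. The coding join that those reads cross is printed because it carries most of the DDIT4 signal, with the last 15 bases of the upstream exon in lower case and the first 15 of the downstream exon in capitals, from GENCODE 29 transcripts.
DDIT4: tcgggccggaggaagACACGGCTTACCTGG
DDIT4 had no unannotated junction, 0 against 555 annotated reads, which allows up to 0.541% for counting error only. The antisense gene DDIT4-AS1 covers its last exon. Each junction's strand came from its splice motif, so the DDIT4 reads are those of the plus strand.

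Of the marker lists of other blood cells, the lymphoid and myeloid sums were also lower in both mutant libraries. Of all single genes tested, 20.1% lay below in this way. The megakaryocyte sums, given above, overlapped between groups. The lymphoid list, 3 of 7 with reads and CD2, CD79A, MS4A1 and PAX5 at 0, summed to 14.4 and 10.8 CPM in wild type and 2.02 and 4.99 CPM in the mutant libraries. In wild type most of the lymphoid sum was 1 gene, CD3D, at 12.5 and 7.52 CPM against 1.01 and 2.91 CPM. The myeloid list, 4 of 6 with reads and CD14 and MPO at 0, summed to 163 and 132.9 CPM against 75.7 and 132.5 CPM. Nearly all of it was ITGAM and LYZ. ITGAM overlapped, at 85.6 and 97.1 CPM against 64.1 and 95.9 CPM. LYZ had 77.3 and 35.5 CPM against 11.1 and 35.1 CPM. None of these 3 genes passed. Their part in the DDIT4 values was not tested. In bulk RNA, fewer cells of a type and less RNA per cell cannot be told apart.

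**Figure D2:**
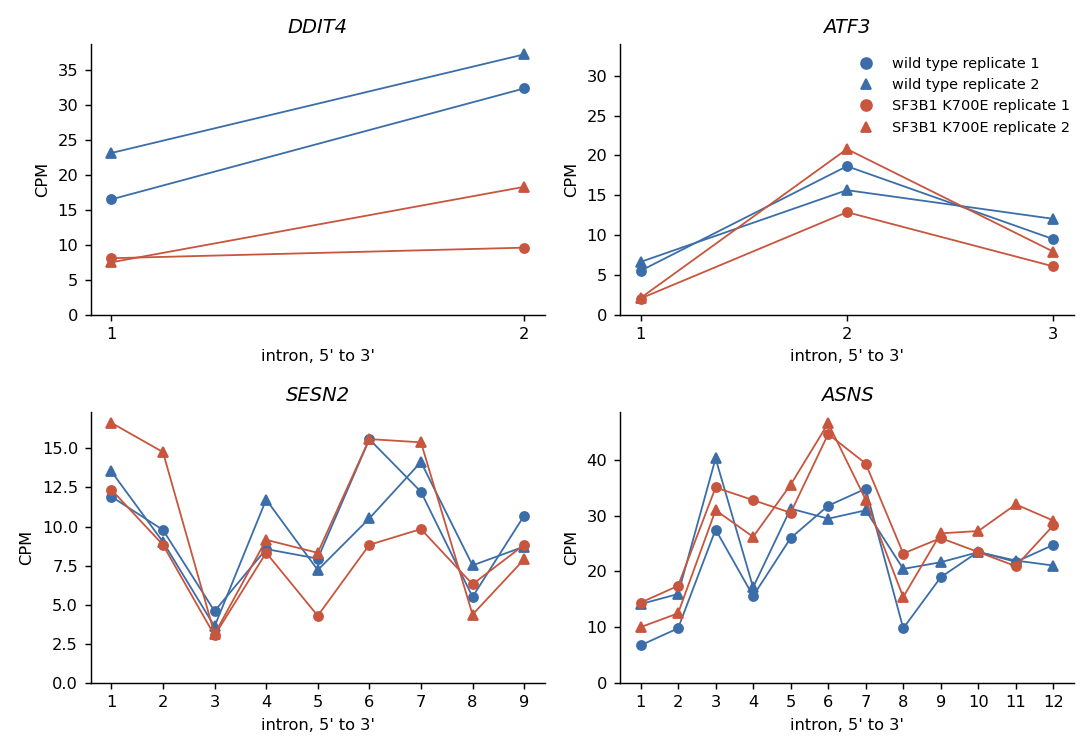
CPM of each intron of the reference transcript in 4 genes, numbered 5′ to 3′, with 1 line per library (blue, wild type; red, SF3B1 K700E). The red lines lie below the blue ones at both introns of DDIT4 and at introns 1 and 3 of ATF3 and intron 3 of SESN2, and above them at introns 4, 6, 9 and 12 of ASNS.

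The transcription factors of the pathway among the 9 genes, ATF4, DDIT3 and ATF3, showed no called change. ATF4, its central activator (ENSG00000128272.14, chromosome 22, 39519695 to 39522685, plus strand), had 108 and 81.5 CPM in wild type and 95.1 and 127 CPM in the mutant libraries. The groups overlapped, with means of 94.5 ± 18.5 and 111 ± 22.6 CPM. The log2 change was 0.23 (standard error 0.26, edgeR adjusted p = 0.872), and ran from 0.023 to 0.45 with 1 library left out.

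Within ATF4 the introns differed in whether the groups overlapped, and differences between them were not tested. The intron before the exon of the start codon (39520752 to 39521353) had 18.6 and 19.5 CPM in wild type and 29.5 and 21.8 CPM in the mutant libraries. Both mutant libraries were higher there, as at 18.9% of all annotated introns with at least 10 reads. The coding intron (39521672 to 39521772) had 88.6 and 61.9 CPM against 65.3 and 104 CPM, and there the groups overlapped. The most upstream intron, used by 1 transcript, had 6 reads in all. The coding join held 1257 of ATF4's 1611 annotated reads and is shown in the same form.
ATF4: ccaacaacagcaaggAGGATGCCTTCTCCG

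DDIT3 encodes CHOP, the bZIP partner of ATF4 linked to cell death under lasting stress (ENSG00000175197.12, chromosome 12, 57516588 to 57521737, minus strand). Its total was 27.5 and 30.1 CPM in wild type and 30.8 and 28.7 CPM in the mutant libraries. The groups overlapped and the log2 change was 0.05 (standard error 0.27, edgeR adjusted p = 0.990). That total leaves out its first intron (57517754 to 57520417, 256 reads), which is annotated in the overlapping gene AC022506.1 as well. With introns of several genes counted for each, a setting added after the data were seen, DDIT3 had 38.1 and 46.8 against 49.9 and 36.0 CPM, again overlapping.

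ATF3 is a bZIP repressor and early stress gene (ENSG00000162772.16, chromosome 1, 212565334 to 212620777, plus strand). It had 35.5 and 36.7 CPM in wild type and 21.2 and 32.2 CPM in the mutant libraries. Both mutant libraries were lower, but the log2 change of -0.43 with a standard error of 0.30 did not pass (edgeR adjusted p = 0.735). Leaving out 1 library at a time moved it between -0.75 and -0.15.

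The introns of ATF3 differed in whether the groups overlapped. Intron 1, in the 5′ UTR (212608931 to 212615017), had 5.50 and 6.61 CPM in wild type and 2.02 and 2.08 CPM in the mutant libraries, from 40 and 18 reads per group. Intron 2 (212615262 to 212618126) had 18.6 and 15.6 CPM against 12.9 and 20.8 CPM, and its groups overlapped. Intron 3 (212618235 to 212619357) had 9.47 and 12.03 CPM against 6.05 and 7.90 CPM, with no overlap. Differences between introns of a gene were not tested.

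Among the targets, ASNS makes asparagine and is a standard readout of the amino acid branch (ENSG00000070669.16, chromosome 7, 97852118 to 97872542, minus strand). Of its 17 introns with reads, 12 are also annotated in the overlapping gene AC079781.5 on the same strand, and they held 4674 of its 4730 reads. The total from introns of ASNS alone was therefore small, at 4.28 and 2.41 CPM in wild type and 3.78 and 3.95 CPM in the mutant libraries. It overlapped between groups, with a log2 change of 0.21 and a standard error of 0.55 (edgeR adjusted p = 0.966).

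With introns of several genes counted for each, ASNS had 234 and 268 CPM in wild type and 316 and 303 CPM in the mutant libraries. Both mutant libraries were higher, with means of 309 ± 9.10 against 251 ± 23.7 CPM. The log2 change of 0.30 with a standard error of 0.22 did not pass (edgeR adjusted p = 0.747), where 0.346% of 11557 genes were called higher. The 2 genes cannot be told apart in these reads.

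Of the 12 ASNS introns shared with AC079781.5, introns 4, 6, 9 and 12 were higher in both mutant libraries and the others overlapped. Over all annotated introns with at least 10 reads, 18.9% were higher in this way. Differences between the introns were not tested. Intron 4 (97859399 to 97864258) had 15.6 and 17.1 CPM in wild type and 32.8 and 26.2 CPM in the mutant libraries. Intron 6 (97858406 to 97858853) had 31.8 and 29.5 CPM against 44.7 and 46.6 CPM. Both introns were higher in both mutant libraries. Intron 3 (97864497 to 97868907), beside intron 4, had 27.5 and 40.3 CPM against 35.1 and 31.0 CPM and overlapped.

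CHAC1 encodes an enzyme that breaks down glutathione (ENSG00000128965.12, chromosome 15, 40952962 to 40956519, plus strand). It was the least covered of the 9 per intron, with a total of 7.03 and 4.51 CPM in wild type and 4.79 and 6.03 CPM in the mutant libraries. The groups overlapped (log2 change -0.09, standard error 0.48, edgeR adjusted p = 0.989). Its 86 reads limit what could be detected, and 0 unannotated reads beside them allow a share of up to 3.49%.

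TRIB3, a pseudokinase that binds AKT and ATF4 (ENSG00000101255.10, chromosome 20, 362835 to 397559, plus strand), had 30.3 and 26.5 CPM in wild type and 27.2 and 19.1 CPM in the mutant libraries. The groups overlapped in the total (log2 change -0.29, standard error 0.30, edgeR adjusted p = 0.860), and the change ran from -0.56 to -0.04 with 1 library left out. Its first intron (381170 to 388010) was lower in both mutant libraries, at 8.58 and 5.20 against 10.4 and 9.62 CPM. So was its last (391580 to 396197), at 9.59 and 9.57 against 12.5 and 10.2 CPM. Its second intron (388302 to 391286) overlapped, at 8.83 and 4.37 in the mutant libraries against 7.03 and 6.61 CPM. Over all annotated introns with at least 10 reads, 17.1% were lower in both mutant libraries.

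SESN2 encodes sestrin 2, a leucine-sensing inhibitor of mTORC1 signalling (ENSG00000130766.4, chromosome 1, 28259527 to 28282491, plus strand). Its total was 86.8 and 86.0 CPM in wild type and 70.6 and 95.2 CPM in the mutant libraries. The mutant libraries fell on either side of the wild-type ones (log2 change -0.06, standard error 0.25, edgeR adjusted p = 0.987). Its 9 introns ranged from 3.03 to 16.6 CPM. Intron 3 (28271872 to 28272283) was the lowest in each of the 4 libraries, at 4.58 and 3.61 CPM in wild type and 3.03 and 3.12 CPM in the mutant libraries.

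PPP1R15A encodes GADD34, the inducible phosphatase subunit (ENSG00000087074.7, chromosome 19, 48872392 to 48876057, plus strand). It had 50.4 and 31.9 CPM in wild type and 42.1 and 57.4 CPM in the mutant libraries. The groups overlapped (log2 change 0.28, standard error 0.31, edgeR adjusted p = 0.873). Wild-type replicate 2 was the lowest library at both of its introns, with 24.4 and 7.52 CPM, and without it the log2 change was 0.0053.

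Levels can be compared between genes only per intron, here the CPM summed over the introns of the reference transcript and divided by their number. The reference is the annotated transcript whose introns hold the most reads. A reference intron with few reads lowers the level of its gene. This holds for the first intron of ATF4, with 6 of 1611 reads, and the third of CHAC1, with 2 of 86. Introns shared with an overlapping gene are counted in these levels, which covers all 12 reference introns of ASNS and the first of DDIT3. In wild type the order was ATF4 (31.5 ± 6.15 CPM per intron), DDIT4 (27.3 ± 4.07), ASNS (22.4 ± 2.17), PPP1R15A (20.6 ± 6.56), DDIT3 (14.6 ± 2.04), ATF3 (11.3 ± 0.154), SESN2 (9.60 ± 0.0643), TRIB3 (9.40 ± 0.824) and CHAC1 (1.92 ± 0.594). Library values of the neighbours ATF4 and DDIT4, ASNS and PPP1R15A, PPP1R15A and DDIT3, and SESN2 and TRIB3 overlapped. The overlap of ATF4 with DDIT4 depends on dividing by the nearly empty first intron of ATF4 as well. In SF3B1 K700E, the mean of DDIT4 was 10.9 ± 2.87 CPM per intron, the fifth of the 9 in place of the second. ATF4 (37.0 ± 7.53), ASNS (27.6 ± 0.635), PPP1R15A (24.9 ± 5.40) and DDIT3 (14.7 ± 3.30) had higher means there. The mutant values of DDIT4 overlapped those of DDIT3, SESN2, ATF3 and TRIB3, so its place among these genes is not firm.

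**Figure D3:**
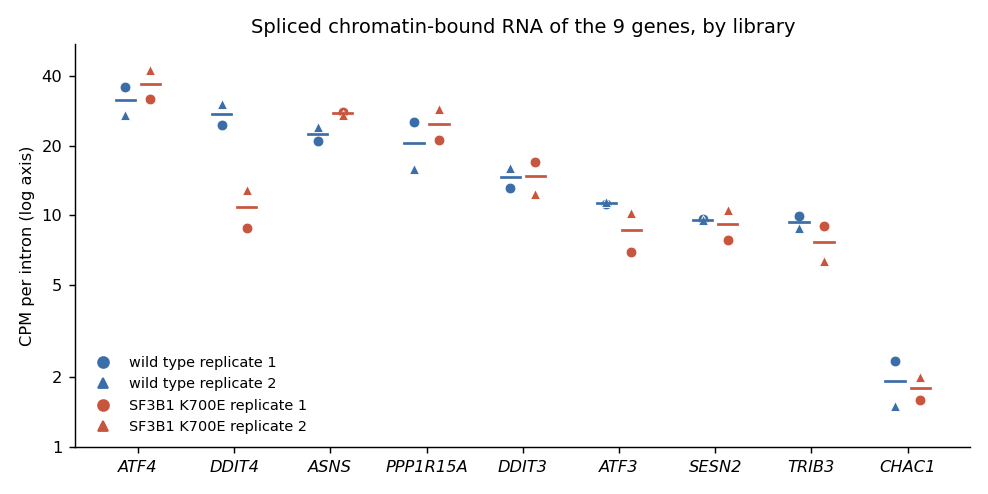
CPM per intron of the reference transcript (log axis) for the 9 genes in each library, with short lines at the group means. DDIT4 lies at 24.5 and 30.2 in wild type against 8.83 and 12.9 in SF3B1 K700E, while CHAC1 lies between 1.503 and 2.34 in all 4 libraries.

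Over the 38 reference introns of the 9 genes with at least 10 reads, both mutant libraries were higher at 5, lower at 7 and overlapping at 26. Over all 123530 annotated introns with as many reads, 18.9% were higher and 17.1% lower in this way. The counts for the 9 genes were near that background.

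Choice of splice site could be tested at 6 places in the 9 genes, 12 tests on 11 junctions with at least 10 reads. None passed (edgeR diffSpliceDGE, lowest unadjusted p = 0.270, adjusted p = 1.00), where 0.137% of all acceptors and 0.0087% of all donors tested were called. The share below is a junction's part of the reads at its shared site, over junctions with at least 10 reads. Rarer junctions at that site are left out.

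DDIT3 offers an acceptor pair of the spacing at which SF3B1 mutants are known to shift. Its 2 annotated acceptors in the 5′ UTR lie 14 nt apart (introns 57517439 to 57517705 and 57517425 to 57517705). The upstream one took 87.0% and 86.7% of reads in wild type and 87.5% and 82.4% in the mutant libraries. The groups overlapped, and the log2 change of the downstream acceptor was 0.09 (edgeR adjusted p = 1.00).

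In ASNS an annotated acceptor 74 nt upstream of the main one (intron 97854755 to 97855352) took 4 of 66 and 2 of 74 reads in wild type and 7 of 110 and 13 of 142 in the mutant libraries. These are shares of 6.06% and 2.703% against 6.36% and 9.15%. It was the only one of the 6 choices without overlap, and the change did not pass (log2 change 0.59, edgeR adjusted p = 1.00). With 1 library left out it ran from 0.25, without wild-type replicate 2, to 1.04, without wild-type replicate 1. Over all acceptors, 19.1% had higher shares in both mutant libraries. GENCODE 29 places this acceptor in ASNS-213, a transcript annotated for nonsense-mediated decay, and both joins are shown because they part right after the same upstream exon.
ASNS main acceptor: atatattttcacaagGCTCCTTCTCCTGAA
ASNS upstream acceptor: atatattttcacaagGATTGGAGAGGGAGA

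A second donor in the 5′ UTR of ASNS (intron 97869814 to 97871718) ends an exon that GENCODE 29 gives as the first in some transcripts and as internal in others. It took 29.03% and 6.0% of reads in wild type and 6.56% and 9.43% in the mutant libraries. Wild-type replicate 1 stood apart, with 9 of 31 reads, and without it the log2 change went from -0.63 to 0.26. A second donor for the last intron of ATF3 (212619267 to 212619357) took 16.2% and 13.04% against 4.0% and 15.6%, and the groups overlapped.

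**Figure D4:**
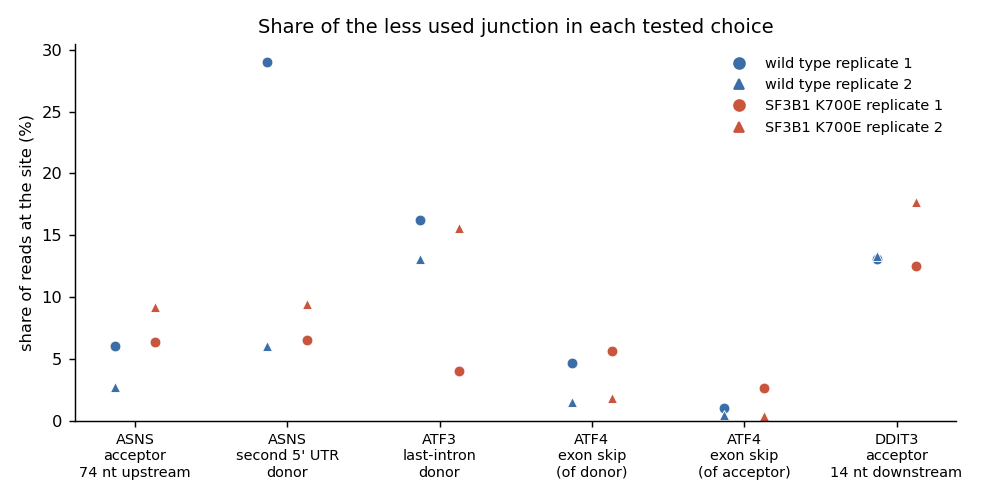
Share of reads taken by the less used junction at each of the 6 tested choices, 1 point per library. The ASNS acceptor 74 nt upstream is the choice where both SF3B1 K700E libraries (6.36% and 9.15%) lie above both wild-type ones (6.06% and 2.703%).

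Unannotated junctions were rare in these genes. They numbered 33, with 73 reads beside 10574 reads over 51 annotated introns, and 19 of them had 1 read. Acceptors 10 to 30 nt upstream of an annotated one were 2 junctions with 4 reads: 1 in DDIT3, 21 nt upstream, with 2 and 0 reads in wild type and 1 and 0 in the mutant libraries, and 1 in ASNS, 20 nt upstream, with 1 read in SF3B1 K700E replicate 2.

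Only 3 unannotated junctions reached 5 reads. The first skips the ATF4 exon that holds the start codon (39520752 to 39521772), with 3 and 1 reads in wild type and 7 and 2 in the mutant libraries. Its share at the donor was 4.69% and 1.52% against 5.65% and 1.87%, and the groups overlapped. The others were in PPP1R15A (48872652 to 48873873), with 0 and 3 against 2 and 3 reads, and in DDIT3 (57519792 to 57519843), with 1 and 0 against 4 and 1 reads.

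The unannotated share of all reads of the 9 genes was 0.459% (95% Wilson interval 0.249 to 0.842) and 0.581% (0.340 to 0.992) in wild type. In SF3B1 K700E it was 1.26% (0.903 to 1.76) and 0.453% (0.279 to 0.735). SF3B1 K700E replicate 1 was high and replicate 2 was not. The difference of 0.336 percentage points did not pass (exact permutation test, 2-sided, p = 1.00, smallest possible 0.333), and without replicate 1 it was -0.0671.

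The wider pathway was read from 6 lists, 99 genes in all when each is counted once, of which 94 were tested. Of these 0 were called in either direction (edgeR), as with DESeq2, while 5 were higher and 7 lower at an unadjusted p of 0.05, against 3.67% and 6.44% of all genes. Both mutant libraries were above both wild-type ones in 26 and below in 19, and the median log2 change was 0.00. The shares of all genes to set beside these and the list counts that follow are 19.4% above and 20.1% below. The genes named in each list below are the most covered ones.

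The 10 eIF2 kinases and regulators had a median log2 change of 0.18, with 3 above and 1 below without overlap. GCN1, the ribosome-bound activator of GCN2, had 963 ± 102 CPM in wild type and 1031 ± 88.4 CPM in the mutant libraries. EIF2AK1, the heme-regulated kinase, had 314 ± 80.6 and 346 ± 6.03 CPM, and EIF2AK4, which encodes GCN2, 125 ± 0.820 and 143 ± 12.3 CPM. None of these 3 passed. The 13 genes of the eIF2, eIF2B and phosphatase list, which also holds EIF2A, had a median of 0.22, with 5 above and 1 below. EIF2S3, the gamma subunit of eIF2, had 586 ± 62.2 and 685 ± 147 CPM. EIF2B5, a subunit of the exchange factor, had 173 ± 7.38 and 173 ± 28.2 CPM. EIF2A, a separate factor and not a subunit of eIF2, had 148 ± 13.3 and 164 ± 25.2 CPM. All 3 overlapped between groups.

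The bZIP partners and related factors, 14 of 16 tested, had a median of 0.02. Both mutant libraries were above in 3 and below in 1. JUN and CEBPB, which have no intron, had 0 junction reads. ATF6 and ATF2 were at 372 ± 60.8 and 374 ± 74.1 CPM in wild type and 368 ± 23.2 and 322 ± 40.3 CPM in the mutant libraries, and QRICH1 at 88.1 ± 0.902 and 103 ± 0.218 CPM. Of the 20 targets for amino acid supply and transport, 6 lay above and 4 below, with a median of -0.03. SLC38A2, a carrier of neutral amino acids, had 372 and 580 CPM in wild type and 685 and 682 CPM in the mutant libraries (log2 change 0.52, edgeR adjusted p = 0.538). SLC3A2, the shared heavy chain of several carriers, had 343 ± 48.6 and 380 ± 79.4 CPM and overlapped. ALDH1L2, of mitochondrial folate metabolism, had 273 ± 30.9 and 334 ± 30.7 CPM (log2 change 0.29, edgeR adjusted p = 0.760).

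The other targets, 19 of 22 tested, had a median of 0.11, with 8 above and 2 below. AARS, the alanyl-tRNA synthetase, had 1223 and 1208 CPM in wild type and 1668 and 1698 CPM in the mutant libraries, a narrow spread in each group (log2 change 0.47, edgeR adjusted p = 0.479). HSPA9, a mitochondrial chaperone, had 851 ± 64.9 and 982 ± 17.0 CPM, and GARS, the glycyl-tRNA synthetase, 785 ± 115 and 848 ± 15.3 CPM. The 20 genes of the IRE1 and ATF6 arms of the unfolded protein response had a median of -0.22, with 1 above and 10 below, against 19.4% and 20.1% of all genes. Of the 20, 17 were negative, as were 49.6% of all genes. HSP90B1, an ER chaperone, had 741 ± 65.1 and 619 ± 42.6 CPM (log2 change -0.26, edgeR adjusted p = 0.790). HSPA5, which encodes BiP, had 490 ± 141 and 480 ± 11.4 CPM and overlapped, as did HYOU1 at 470 ± 88.4 and 434 ± 89.5 CPM.

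**Figure D5:**
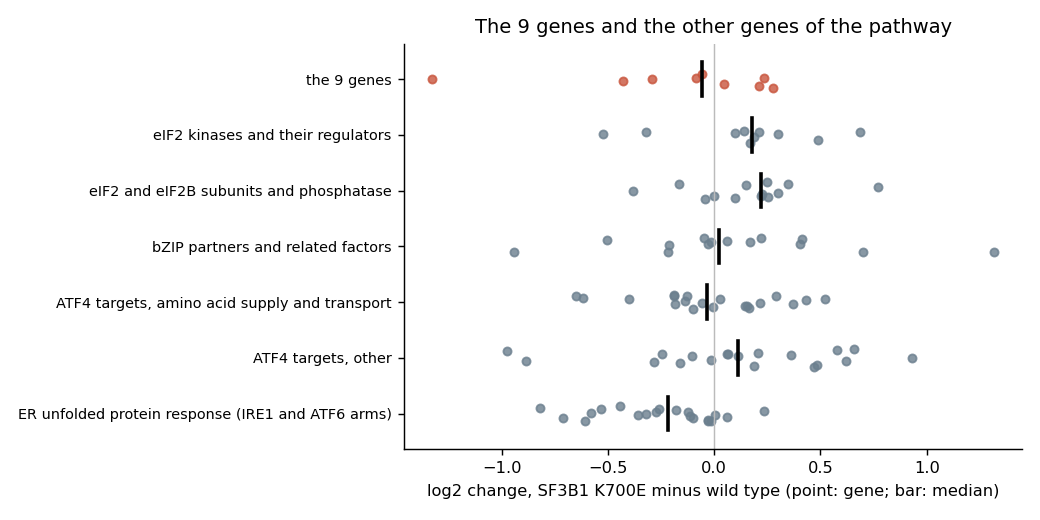
Log2 change, SF3B1 K700E minus wild type, of the 9 genes and of the genes of 6 pathway lists. Each point is a gene and the black bar is the median, which runs from -0.22 in the unfolded protein response arms to 0.22 in the eIF2 and eIF2B list.

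The next 3 genes were chosen after their values were seen, as the lowest unadjusted p of the lists. FOS, an early-response factor, had 8.25 and 9.92 CPM in wild type and 20.2 and 25.2 CPM in the mutant libraries (log2 change 1.32, edgeR adjusted p = 0.120). ERO1A, which drives disulfide formation in the ER, had 107 and 120 against 50.2 and 65.3 CPM (log2 change -0.97, edgeR adjusted p = 0.121). ATF5, a bZIP relative of ATF4, had 43.1 and 40.6 against 18.7 and 24.7 CPM (log2 change -0.94, edgeR adjusted p = 0.214). None overlapped and none passed.

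The genes above the median expression whose 4 library values were most like the mean profile of the 9 were SLC43A3, TPD52L2 and DNAJB12. The distances of their centred log2 CPM from that profile were 0.0079, 0.0293 and 0.0450 over the 4 libraries.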

How the data were processed

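STAR 2.7.10a was run once per library on trimmed pairs by the authors (per the deposited run logs), against GRCh38.p12. The index held GENCODE 27, and GENCODE 22 junctions joined at mapping. The submitters' processing notes name hg38. The deposited junction files hold raw counts of uniquely and multiply mapped reads per junction, and another column, the longest overhang, used only as a filter. The strand of a junction comes from its motif. Unspliced reads were not analysed here.

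From these, unique reads on the main chromosomes were summed per gene over annotated junctions. Genes came from GENCODE 29, which held 99.7% of 188468 annotated junctions. Introns of more than 1 gene (3.98% of those reads) were left out of totals. A read pair that crosses several introns counts at each. Totals were tested with edgeR 4.0.16 in R 4.3.3 (filterByExpr, TMM, quasi-likelihood test, group as the only term, all 4 libraries, Benjamini-Hochberg over all genes, threshold 0.05). The standard error is the log2 change over the square root of F. Junction use was tested with diffSpliceDGE on junctions with a canonical motif and at least 10 reads, in groups of at least 2 sharing a donor or an acceptor. Intervals and limits for 0 reads (3 counts) cover counting error only.

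Alternatives were DESeq2 1.42.0, voom in limma 3.58.1, no TMM, no filter, multiply mapped reads, all canonical junctions, an overhang of at least 20 nt, at least 20 reads, each library left out and the replicate number as a block. Tests were tried on simulated data. All 9 genes are named, with every tested or at least 5-read unannotated junction. Of each list the 3 genes of highest mean CPM and those called are named. The 3 genes most like the 9 have the smallest Euclidean distance of centred log2 CPM. The members and lists were chosen with earlier results of these data known.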

Additional observations from a re-analysis of the deposited data

How the results depend on the processing

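Of the 9 genes, DDIT4 alone changed sides of the threshold. Over all genes, 36 were called higher and 65 lower with edgeR, 63 and 154 with DESeq2, and 0 to 98 and 0 to 227 with 1 library left out. Each such fit has 1 library in an arm, assumed to vary like the other group. The counts of 0 came without SF3B1 K700E replicate 2, where 337 and 609 genes had an unadjusted p under 0.05 (edgeR). Of the list genes, 0 to 1 were called higher (FOS, without SF3B1 K700E replicate 1) and 0 lower (edgeR, 2 to 7 at an unadjusted p under 0.05). Acceptors with increased share numbered 31, 9 with voom and 6 to 16 with 1 library left out. Those with decreased share numbered 1, 6 with voom, 2 at 20 reads or more and 0 to 1 with 1 library left out. The single donor called in each direction fell to 0 with multiply mapped reads (edgeR, 412 and 186 at an unadjusted p under 0.05) and to 0 with any library left out.

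With 1 library left out, these log2 changes crossed 0: DDIT3 from -0.015 to 0.13 (-0.24 to 0.24 with shared introns counted, -0.13 without wild-type replicate 1), ASNS from -0.12 to 0.68, CHAC1 from -0.35 to 0.27 and SESN2 from -0.28 to 0.15. So did junction shares: the ASNS donors from -1.29 to 0.26 and from -0.020 to 0.26, the ATF3 donors from -1.18 to 0.075 and from -0.013 to 0.12, the ATF4 skip at its donor site from -0.18 to 0.89 and the join beside it from -0.027 to 0.0068, and the DDIT3 acceptors from -0.056 to 0.29 and from -0.052 to 0.0079. The ATF4 ranges rest on 3 fits. Without SF3B1 K700E replicate 1 the skip fell under 10 reads, so these shares were not tested there. The unannotated share difference ran from -0.0671 to 0.740 percentage points.

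The labels give no sign that replicate numbers pair libraries, so the numbers were not taken to pair them. Deviations of same-numbered libraries correlated at -0.228. That value does not settle pairing, because crossed numbers would also give a negative one. With the replicate block, 51 genes were called higher and 85 lower, 19 acceptors increased and 0 decreased (edgeR, 107 at an unadjusted p under 0.05), and 0 donors were called in either direction (248 and 90). DDIT4 had an adjusted p of 0.117 (edgeR). With crossed numbers, added after the data were seen, the pairing gave 134 higher and 326 lower, with 1 list gene higher (FOS) and 2 lower (ERO1A and ATF5), and an adjusted p of 0.0150 for DDIT4 (edgeR). With shared introns counted, DDIT4 was called without wild-type replicate 1 and without SF3B1 K700E replicate 2 (edgeR adjusted p = 0.0101 and 0.0181). Few reads limit CHAC1, the ASNS total and all junction shares.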
